A study of Mus musculus with 6 samples.

Results

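Cdh5, Pecam1, Kdr, Flt1, Tek, Tie1, Emcn, Esam, Eng and Sox17 are genes that mark endothelial cells, the cells that line blood vessels. They were chosen as a list of 10 symbols, out of 55487 genes in the deposited tables, with earlier results of these data known. They were read in untreated mouse embryonic fibroblast (MEF) cultures of 2 genotypes at passages 2, 3 and 4. A MEF culture is grown out of embryo tissue and can carry other embryonic cells, and a passage is each detaching and replating of the culture. There was 1 library of total RNA for each genotype and passage, 3 labelled WT and 3 labelled KO, and the labels do not name the gene that was knocked out, the strain, the embryo age or the number of embryos. The genotype tag of the KO libraries of passages 3 and 4 reads WT, so the genotype was taken from the titles. Nothing in the labels says that the libraries of a genotype came from separate cultures, and p-values therefore measure the spread among the 6 libraries, which may be technical.

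Of the 9 genes that had enough counts to be tested, 4 fell with passage. These were Cdh5, Pecam1, Tie1 and Esam. Tie1 and Esam had the minimum count for testing only in libraries of passages 2 and 3. Tek, Kdr, Flt1, Eng and Emcn did not pass the test for passage, so a description of the whole list as lost with passage does not hold in these data. Sox17 had 17 counts over the 6 libraries together and was under the filter. Flt1 differed between the genotypes and was lower in KO.

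Endothelial cells are held together at adherens junctions by VE-cadherin, the product of Cdh5, and carry PECAM-1 (Pecam1) and ESAM (Esam) at their contacts. Their growth is driven by VEGF, which signals through VEGFR2 (Kdr) and is bound tightly by VEGFR1 (Flt1), a receptor with weak signalling that also exists as a secreted trap. Angiopoietins act on TIE2 (Tek), with which the related receptor TIE1 (Tie1) forms complexes, and endoglin (Eng) is a co-receptor for BMP9, BMP10 and TGF-beta. Endomucin (Emcn) is a surface sialomucin of veins and capillaries, and SOX17 (Sox17) is a transcription factor of arterial endothelium. Several of these genes are also expressed outside endothelium, Eng and Flt1 in stromal cells among them.

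The genes lie on 8 chromosomes of build GRCm38, and each is annotated as protein coding in GENCODE M21. Cdh5 (ENSMUSG00000031871) occupies chr8:104101625-104144511, Pecam1 (ENSMUSG00000020717) chr11:106654217-106750628, and Esam (ENSMUSG00000001946) chr9:37528078-37538319. The angiopoietin receptor genes are both on chromosome 4, Tie1 (ENSMUSG00000033191) at 118471191-118490061 and Tek (ENSMUSG00000006386) at 94739289-94874976. The VEGF receptor genes are both on chromosome 5, Kdr (ENSMUSG00000062960) at 75932827-75978458 and Flt1 (ENSMUSG00000029648) at 147561604-147726011. Eng (ENSMUSG00000026814) lies at chr2:32646595-32682669, Emcn (ENSMUSG00000054690) at chr3:137341067-137432185 and Sox17 (ENSMUSG00000025902) at chr1:4490931-4497354. Cdh5 overlaps the antisense gene Gm29682, the end of Eng overlaps Fpgs on the other strand, and Sox17 overlaps Gm37587. Whether reads were assigned by strand is not given in the sources used here. Of the 64-base words in GENCODE M21 transcripts, 0 of 4138 for Cdh5 and 0 of 4198 for Eng also occur in other genes on either strand. For Sox17 the share is 14.5%, so reads of that pair may not be separated. Shorter overlaps were not examined.

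Promoters are shown for 3 of the receptor genes that did not pass the test for passage, since ETS-family factors, which bind a GGAA core, are central to endothelial transcription. Each is the 250 bases before the gene's start in RefSeq (GRCm38.p6), written 5′ to 3′ along the gene, with GGAA and its reverse complement TTCC in capitals. They are chr5:147726012-147726261 (minus strand) for Flt1, chr4:94739039-94739288 (plus strand) for Tek and chr2:32646345-32646594 (plus strand) for Eng.
Flt1: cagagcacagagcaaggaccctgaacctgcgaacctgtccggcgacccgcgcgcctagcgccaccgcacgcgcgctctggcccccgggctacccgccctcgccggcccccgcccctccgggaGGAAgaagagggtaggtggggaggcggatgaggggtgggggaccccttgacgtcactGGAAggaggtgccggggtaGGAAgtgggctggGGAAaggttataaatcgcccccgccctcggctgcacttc
Tek: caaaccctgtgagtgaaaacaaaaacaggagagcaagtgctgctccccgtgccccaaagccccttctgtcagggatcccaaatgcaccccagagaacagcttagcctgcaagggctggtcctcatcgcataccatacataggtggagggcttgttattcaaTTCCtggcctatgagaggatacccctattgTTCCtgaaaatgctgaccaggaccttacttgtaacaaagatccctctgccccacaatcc
Eng: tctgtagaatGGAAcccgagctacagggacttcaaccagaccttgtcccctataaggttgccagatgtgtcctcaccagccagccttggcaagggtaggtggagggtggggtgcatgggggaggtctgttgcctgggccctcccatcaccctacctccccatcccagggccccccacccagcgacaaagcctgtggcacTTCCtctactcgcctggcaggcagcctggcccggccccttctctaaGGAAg
GGAA on either strand occurred 4 times in the Flt1 window, 2 times in the Tek window and 3 times in the Eng window. The windows of Kdr, Emcn and Tie1 held 4, 4 and 7. The core is common, and 93.4% of 32851 promoter windows of that length held at least 1 GGAA, with a median of 3. Of the 10 genes, 6 were matched in the RefSeq table. Cdh5, Pecam1, Esam and Sox17 were the others.

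Library totals ran from 24853121 to 67760880 expected counts, and a gene with 0 counts could have had up to 3, which is between 0.0430 and 0.124 CPM (counts scaled by library size, after TMM normalisation). Intervals and floors given for single libraries cover counting error only. The cultures carried fibroblast transcripts throughout: 12 fibroblast markers, collagen genes among them, summed to between 32969 and 68158 CPM. In bulk RNA, fewer cells of a type and less RNA per cell cannot be told apart.

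Per length, in TPM (abundance scaled by transcript length and to 1 total per library, as the authors' RSEM run gave it), the levels of the 10 genes fell into 3 tiers. Flt1 was the highest, between 30.7 and 71.7 TPM, and held between 59.5% and 83.0% of the list's summed TPM in each library. Eng came next at 10.7 to 14.9 TPM. Every other gene was at or below 3.38 TPM in every library, and each of these ranges overlapped the next in order of level: Emcn ran from 1.18 to 3.38, Kdr from 1.11 to 2.35, Cdh5 from 0.07 to 3.11, Pecam1 from 0.23 to 2.68, Esam from 0.39 to 1.45 and Tek from 0.32 to 0.86. Emcn and Kdr lay above Tek, Tie1 and Sox17 in every library. Tie1 reached 0.59 TPM and Sox17 0.29. The genes that fell were thus all in the lowest tier, where a library gives few counts.

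**Figure D1:**
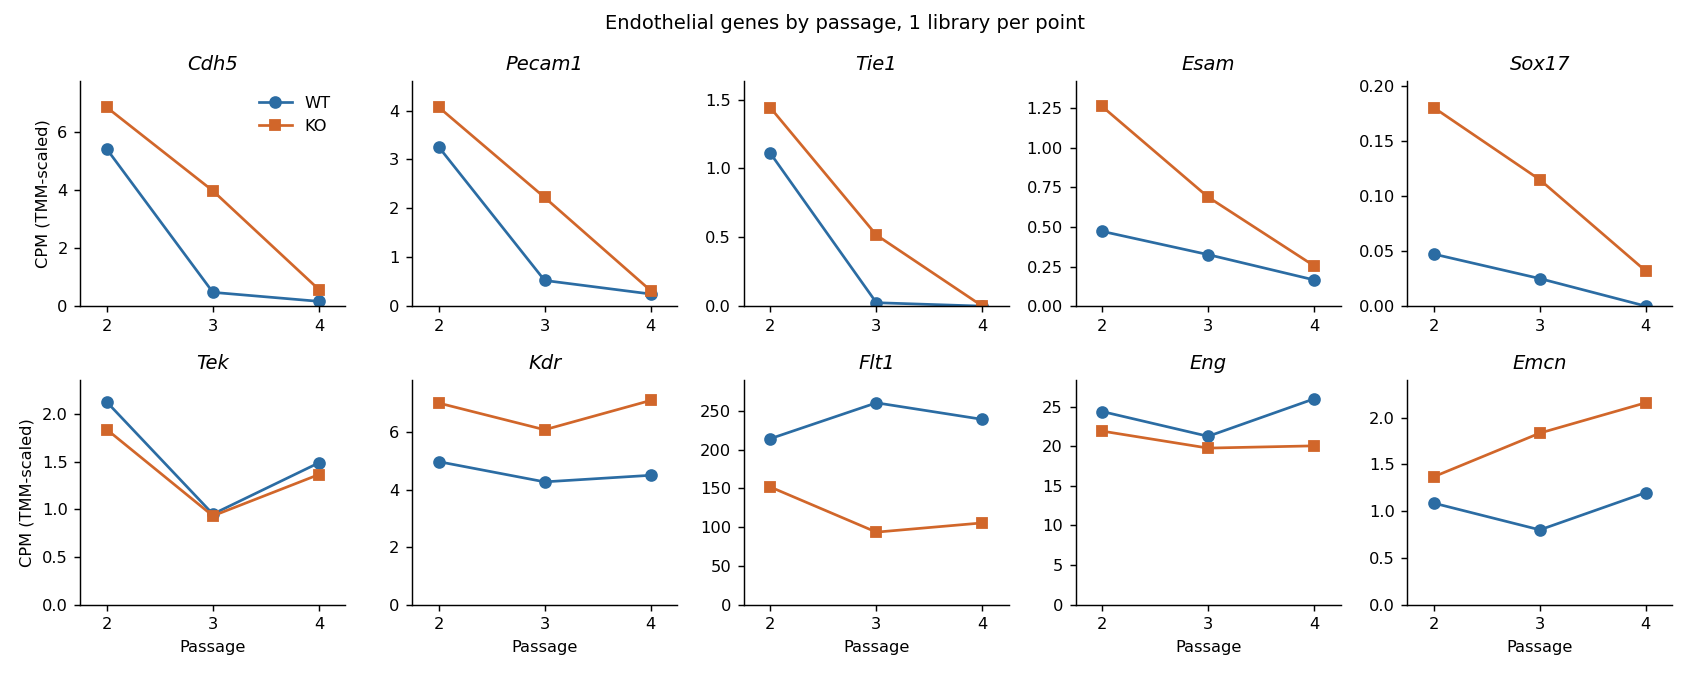
CPM of each of the 10 genes (vertical axes, each starting at 0 with its own scale) against passage, with 1 library per point, WT as circles and KO as squares. Cdh5, Pecam1, Tie1 and Esam are highest at passage 2 and lowest at passage 4 in both genotypes, Flt1 lies lower in all KO libraries (93.7 to 152 CPM) than in all WT libraries (214 to 260.5 CPM), and Kdr and Emcn lie higher in KO.

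Cdh5, the gene of VE-cadherin, was measured at 5.41, 0.475 and 0.165 CPM in the WT libraries of passages 2, 3 and 4, from 229, 19 and 4 counts. The KO libraries gave 6.84, 3.97 and 0.572 CPM, from 190, 277 and 18 counts. The order by passage was the same in both genotypes, but at passage 3 the KO library lay midway between its neighbours, while the WT library was already near its level of passage 4. Over both genotypes Cdh5 fell by 2.14 ± 0.33 (SE) on the log2 scale per passage (edgeR quasi-likelihood test, Benjamini-Hochberg adjusted p = 0.0144). The WT level at passage 2 was 32.7 times that at passage 4 (95% counting interval 12.6 to 121), and the KO level 12.0 times (7.37 to 20.6).

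Pecam1, which encodes an adhesion molecule of endothelial contacts and platelets, was measured at 3.26, 0.526 and 0.248 CPM in WT and at 4.07, 2.22 and 0.318 CPM in KO at passages 2, 3 and 4. The pattern was that of Cdh5, with the KO library of passage 3 again well above the WT library. Pecam1 fell by 1.84 ± 0.25 (SE) on the log2 scale per passage (edgeR adjusted p = 0.00792). Its level at passage 2 was 13.1 times that at passage 4 in WT (5.88 to 36.4) and 12.8 times in KO (6.72 to 27.5). Cdh5 and Pecam1 counts kept a ratio between 1.66 and 1.80 in the WT library of passage 2 and all 3 KO libraries. In the WT libraries of passages 3 and 4 the ratio was 0.905 and 0.667, with counting intervals (0.460 to 1.77 and 0.138 to 2.81) that include 1.66.

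Tie1, the gene of an orphan receptor that partners TIE2, had 47, 1 and 0 counts in WT and 40, 36 and 0 counts in KO at passages 2, 3 and 4, or 1.11, 0.0250 and 0 CPM and 1.44, 0.516 and 0 CPM. Neither library of passage 4 held a count. The level at passage 2 was at least 8.95 times that at passage 4 in WT and at least 15.1 times in KO, each against a floor of 3 counts in the passage 4 library. Tie1 reached the filter's minimum of 10 counts only in the passage 2 libraries and the KO library of passage 3. It was tested because of these libraries, in which it was high. Tie1 fell with passage (edgeR adjusted p = 0.0227, and called without a filter too), with a fitted log2 slope of -2.92 ± 0.53 (SE). That slope is no measure of size, because both libraries of passage 4 are at 0, and it was -5.53 without the KO library of passage 2 and -4.91 without the KO library of passage 3.

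Esam, which encodes a tight-junction adhesion molecule, had 0.472, 0.325 and 0.165 CPM in WT, and in KO 1.26, 0.688 and 0.254 CPM, from 4 to 48 counts per library. It fell by 0.95 ± 0.22 (SE) on the log2 scale per passage, close to the threshold (edgeR adjusted p = 0.0461). The WT interval of passage 2 over passage 4 included no difference (2.86 times, 0.956 to 11.5), and the KO interval did not (4.96 times, 2.26 to 12.4). Both passage 4 libraries were under the filter's minimum of 10 counts, with 4 in WT and 8 in KO. Esam was therefore tested because of the earlier libraries. The call for Esam held in 2 of 15 other settings, the fit without a filter among them. The effective length that RSEM assigned to Esam ran from 386 to 1768 bases between libraries, and with it as an offset the slope was -0.59 (adjusted p = 0.299).

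Summed over Cdh5, Pecam1, Tie1 and Esam, the level was 10.3, 1.35 and 0.579 CPM in WT, and in KO 13.6, 7.40 and 1.14 CPM at passages 2, 3 and 4. Among all 16603 genes tested, 3.48% were called lower with passage, against 4 of the 9 endothelial genes. The 9 genes were chosen with earlier results of these data known, so their share is no independent support for a fall. With DESeq2, which called 5.65% of all genes lower, 3 of the 9 passed. The median slope of the 9 genes was -0.25 on the log2 scale, and that of all genes tested was 0.0035. A stepwise order, passage 2 above passage 3 above passage 4 in both genotypes, was seen for 4 of the 9, the same 4 genes, and for 8.9% of all genes tested. That order is read from the same values as the slopes and is not a separate result. With Tek, 5 of the 9 were lower at passage 4 than at passage 2 in both genotypes, as were 30.1% of all genes.

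The calls rested on single libraries. Without the WT library of passage 2, the WT library of passage 4 or the KO library of passage 4, 0 of the 9 genes passed in edgeR; without any one of the other libraries Cdh5, Pecam1 and Tie1 passed and Esam did not. In the 3 fits with no call, Cdh5 had an adjusted p of 0.0600, 0.0933 and 0.0822, Pecam1 of 0.0695, 0.0538 and 0.0646, and Tie1 of 0.101, 0.0931 and 0.108. Their slopes stayed negative in each of these fits, at most -1.66 for Cdh5, -1.60 for Pecam1 and -2.32 for Tie1. Without both libraries of passage 2, Cdh5 (log2 -2.43, adjusted p = 0.115), Pecam1 (log2 -2.13, adjusted p = 0.183) and Tie1 did not pass, in a fit that called 0.0542% of all genes lower.

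**Figure D2:**
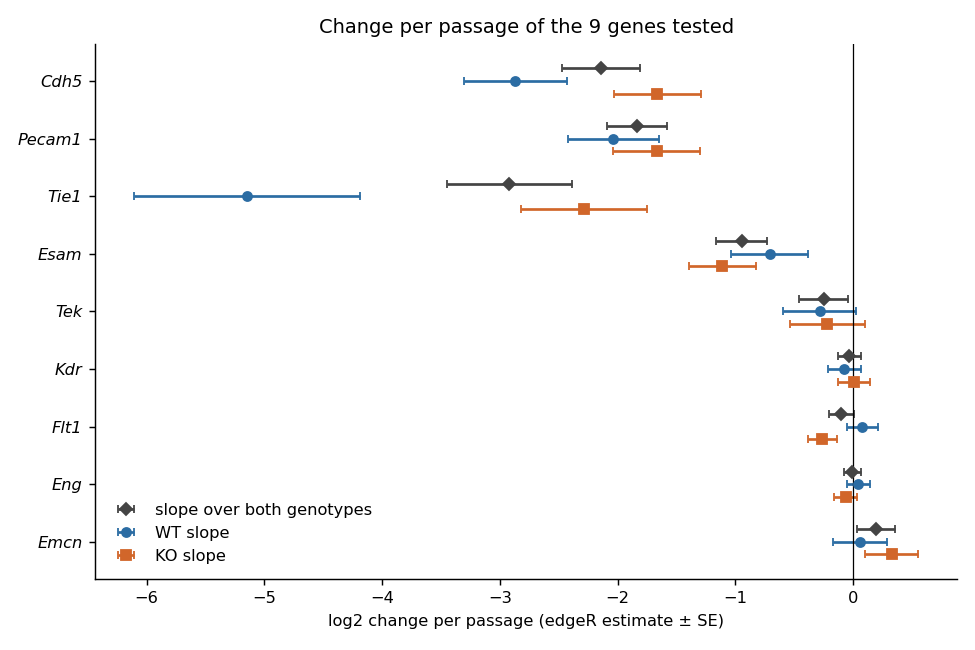
Change per passage on the log2 scale (horizontal axis) of the 9 genes tested, for both genotypes together (diamonds) and for WT (circles) and KO (squares) alone; bars are SE. Cdh5, Pecam1, Tie1 and Esam lie below 0 in all 3 fits, while Kdr, Flt1, Eng and Emcn lie near 0.

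The other angiopoietin receptor gene did not follow Tie1. Tek had 2.13, 0.951 and 1.49 CPM in WT, and in KO 1.84, 0.932 and 1.37 CPM at passages 2, 3 and 4. In both genotypes passage 3 was the lowest, and the level at passage 2 was 2.24 times that at passage 3 in WT (1.51 to 3.36) and 1.97 times in KO (1.34 to 2.89). Passage 4 lay between, and the linear slope was -0.25 ± 0.21 (SE, edgeR adjusted p = 0.552). Without both libraries of passage 2 the slope of Tek was 0.60.

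The VEGF receptor genes had no called change with passage. Kdr, whose product VEGFR2 is the main signalling receptor for VEGF, had 4.98, 4.28 and 4.51 CPM in WT, and in KO 7.02, 6.09 and 7.12 CPM, with a slope of -0.031 ± 0.096 (SE, adjusted p = 0.897). Flt1 had 214, 260.5 and 239 CPM in WT, and in KO 152, 93.7 and 106 CPM, with a slope of -0.10 ± 0.11 (SE, adjusted p = 0.646). Within KO the libraries of passages 3 and 4 were both lower for Flt1 than that of passage 2, and within WT both were higher. The KO slope was -0.26 (adjusted p = 0.363, and 0.0459 without a filter on low counts), the WT slope 0.079 (adjusted p = 0.809), and their difference was -0.34 ± 0.18 (SE, adjusted p = 0.783).

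Eng, the co-receptor gene, had the slope nearest to 0 of the 9. It had 24.4, 21.2 and 26.0 CPM in WT, and in KO 21.9, 19.8 and 20.0 CPM, and its slope was -0.0085 ± 0.071 (SE, adjusted p = 0.965). Emcn had 1.09, 0.801 and 1.20 CPM in WT, and in KO 1.37, 1.84 and 2.16 CPM. Its KO values were ordered upwards by passage and its WT values were not, and the slope over both was 0.19 ± 0.16 (SE, adjusted p = 0.560). Sox17 had 2, 1 and 0 counts in WT and 5, 8 and 1 in KO. The WT counts were all under the floor of 3, so no fold is given, and the KO ratio of passage 2 to passage 4 was 5.67 with an interval from 0.635 to 268. At this depth a change of Sox17 was not detectable, and 14.5% of the 64-base words of its transcripts also occur in other genes.

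In single libraries, Cdh5, Pecam1 and Tie1 differed between the genotypes in the step at which most of the change lay. The level of Cdh5 at passage 2 was 11.4 times that at passage 3 in WT (7.12 to 19.2) and 1.72 times in KO (1.43 to 2.08). The corresponding ratios for Pecam1 were 6.20 (3.90 to 10.3) and 1.83 (1.42 to 2.35). For Tie1 they were 44.4 (7.58 to 1789, against a single count) and 2.79 (1.73 to 4.51). Esam showed no such gap, with 1.45 (0.687 to 3.18) in WT and 1.83 (1.15 to 2.89) in KO. Between passages 3 and 4 it was KO in which Cdh5 differed more, 6.95 times (4.31 to 11.9) against 2.87 times (0.955 to 11.6) in WT.

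The genotypes stood furthest apart at passage 3 for Cdh5, Pecam1 and Tie1. The KO level of Cdh5 was 1.27 times the WT level at passage 2, 8.35 times at passage 3 (5.25 to 14.1) and 3.46 times at passage 4 (1.14 to 14.0). For Pecam1 it was 1.25, 4.23 (2.67 to 7.03) and 1.28 times. At passage 3 the KO level of Tie1 was 20.6 times the WT level (3.47 to 837), against 1 count in WT. Each of these ratios compares 1 library with 1 other, so the difference has no replicate check. The KO library of passage 3 was also the deepest of the 6, and the part of depth was not tested. A linear slope rests mainly on passages 2 and 4, so a test of slopes cannot decide a gap at passage 3. The test of the linear slopes against each other called 0 of the 9 genes in edgeR, with 0 at an unadjusted p under 0.05 (4.07% of all genes were lower and 2.78% higher at that level). DESeq2 also called 0, with 2 genes lacking an adjusted p. Of all genes edgeR called 0% and DESeq2 0.592%. The difference of slopes was 1.21 ± 0.63 (SE, adjusted p = 0.781) for Cdh5, 0.37 ± 0.56 (SE, adjusted p = 0.932) for Pecam1 and 2.86 ± 1.40 (SE, adjusted p = 0.766) for Tie1.

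Within a single genotype no gene of the list passed in edgeR. In WT the slope was -2.87 for Cdh5 (adjusted p = 0.0515), -2.04 for Pecam1 (0.0808 by the same measure) and -5.15 for Tie1 (0.0790), and in KO it was -1.66 (adjusted p = 0.111), -1.67 (0.106) and -2.29 (0.120). Of all genes edgeR called 0.566% lower in WT and 0.638% lower in KO. At an unadjusted p under 0.05, 3 of the 9 genes were lower in WT and 4 in KO, beside 8.87% and 8.84% of all genes. DESeq2 called 3 and 2 of the 9, beside 2.19% and 2.81% of the genes for which it gave an adjusted p. In KO it gave no adjusted p for 2 of the 9. Without a filter, where Sox17 was tested too, edgeR called 3 and 4 of the 10, beside 2.85% and 2.93%. The KO calls without a filter were Cdh5, Pecam1, Tie1 and Flt1 (log2 -0.27, adjusted p = 0.0459 for Flt1), not Esam. Leaving out 1 library moved these slopes widely, from -3.47 to -1.50 for Cdh5, from -2.60 to -1.07 for Pecam1 and from -5.29 to -3.13 for Tie1 in WT, and from -2.79 to -0.78 for Cdh5, from -2.79 to -0.87 for Pecam1 and from -7.43 to -1.48 for Tie1 in KO.

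Between genotypes, Flt1 was the gene of the list that passed. The WT libraries averaged 238 ± 23.1 CPM and the KO libraries 117 ± 30.8 CPM (SD, n = 3 libraries each). The groups did not overlap, with every KO library below every WT library, an arrangement seen for 14.1% of all genes tested. The difference was -1.02 ± 0.19 (SE) on the log2 scale (edgeR adjusted p = 0.0382), and 1.55% of all genes tested were called lower in KO. The KO level of Flt1 was 0.709, 0.360 and 0.442 times the WT level at passages 2, 3 and 4, so it was lower at each passage. The call was lost without any one library other than the KO library of passage 2, with an adjusted p between 0.0563 and 0.181 and a difference between -1.10 and -0.89. It was lost too with effective lengths as an offset (log2 -0.95, adjusted p = 0.0629), while DESeq2, which called 5.99% of genes lower, and both TPM fits kept it. With the genotype tag in place of the title it was -0.27 (adjusted p = 0.928). Leaving out the KO library of passage 2 gave -1.26 (adjusted p = 0.0170).

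WT and KO also differed in transcripts of the sex chromosomes. Xist, transcribed from the inactive X chromosome, was at 0.118 to 0.300 CPM in WT and 416 to 566 CPM in KO, and 4 Y-linked genes summed to 168 to 188 CPM in WT and 0 to 1.40 CPM in KO. Genotype and sex cannot be told apart in these libraries, for Flt1 as for the other genes. Fibroblast markers were lower in KO as well: 5 of 12 were called (Col1a1, Col1a2, Col3a1, Dcn and Pdgfra), 8 with passage as a block and 7 in DESeq2, where 1.55%, 6.37% and 5.99% of all genes tested by each were called lower. Their part in the Flt1 difference was not tested.

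Kdr and Emcn were higher in every KO library than in every WT library, an arrangement seen for 13.1% of all genes tested. The KO level of Kdr was 1.41, 1.42 and 1.58 times the WT level at passages 2, 3 and 4, and the genotype difference was 0.55 ± 0.16 (SE, edgeR adjusted p = 0.117). DESeq2 called Kdr higher in KO (adjusted p = 0.0352), with 4.86% of the genes for which it gave an adjusted p. Emcn was 1.26, 2.29 and 1.80 times the WT level, with a difference of 0.81 ± 0.30 (SE, adjusted p = 0.181). The VEGF receptor genes therefore lay on opposite sides, Flt1 with the lower and Kdr with the higher values in KO.

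**Figure D3:**
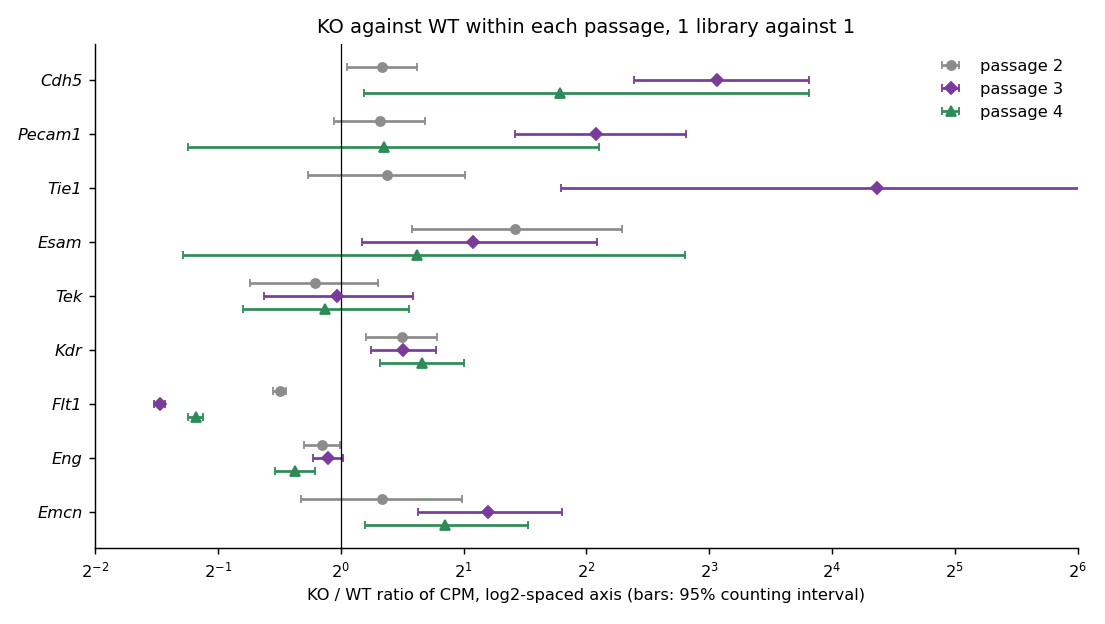
KO to WT ratio of CPM at each passage for the 9 genes tested (horizontal axis, log2-spaced, 1 library against 1; bars are 95% counting intervals). The Tie1 bar at passage 3 is cut at the edge of the axis, as its interval runs to 837. Cdh5 (8.35), Pecam1 (4.23) and Tie1 (20.6) lie furthest to the right at passage 3, Kdr stays between 1.41 and 1.58, and Flt1 lies below 1 at every passage; a passage where both libraries are at or under 3 counts has no point.

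The remaining genes had genotype differences that were not called. Esam was 1.12 ± 0.61 (SE, adjusted p = 0.339), Eng -0.21 ± 0.12 (SE, adjusted p = 0.349), Cdh5 0.88 ± 1.21 (SE, adjusted p = 0.731), Pecam1 0.67 ± 1.06 (SE, adjusted p = 0.767), Tie1 0.65 ± 1.48 (SE, adjusted p = 0.848) and Tek -0.16 ± 0.39 (SE, adjusted p = 0.859). That fit has no term for passage, so the change of Cdh5, Pecam1 and Tie1 with passage is part of their errors. With passage as a block (edgeR), Cdh5 was 1.53 ± 0.56 (SE, adjusted p = 0.133) and Pecam1 0.98 ± 0.41 (SE, adjusted p = 0.159). In that fit Tie1 was 1.33 ± 0.77 (SE, adjusted p = 0.319) and Esam 1.13 ± 0.36 (SE, adjusted p = 0.0823), so these genes were not called there either. The median genotype difference of the 9 genes was 0.65, and that of all genes tested was -0.013.

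Other genes of the endothelial programme were read from 5 lists with 84 genes, of which 68 had enough counts. The lists too were chosen with earlier results of these data known. With passage 13 of the 68 were lower (19.1%), 4 were higher (5.88%) and 51 did not pass, and their median slope was -0.069. Of all genes tested 2.78% were called higher with passage, beside the 3.48% called lower.

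Among ligands of endothelial receptors 2 of 11 tested fell and 1 rose. Dll4, the Notch ligand of tip and arterial cells, had 1.13, 0.10 and 0.0414 CPM in WT, and in KO 1.77, 0.416 and 0.0635 CPM, a slope of -2.47 (adjusted p = 0.00356). Its values at passage 4 are under the floors of 3 counts (0.124 CPM in WT and 0.0953 CPM in KO). Apln, the apelin gene, went from 36.4 CPM at passage 2 to 3.93 CPM at passage 4 in WT and from 19.4 to 3.49 CPM in KO (slope -1.37, adjusted p = 0.0134). Vegfd, a ligand of the lymphatic VEGF receptor, rose from 26.5 to 52.9 CPM in WT and from 15.8 to 31.1 CPM in KO (slope 0.50, adjusted p = 0.00732).

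Of 17 receptors and co-receptors 2 fell and 1 rose. Robo4, a guidance receptor nearly restricted to endothelium, fell with a slope of -2.14 (adjusted p = 0.0359), and Ramp2, the partner of the adrenomedullin receptor, with -1.05 (adjusted p = 0.0429). Robo4 was also lower in WT than in KO at passage 3, with 0.0250 CPM in WT, and in KO 0.531 CPM. The WT value is under the floor of 3 counts in that library (0.0751 CPM). At passage 4 Robo4 was at 0.0414 CPM in WT and 0.0318 CPM in KO. Both are under the floors of 0.124 and 0.0953 CPM, so its slope is no measure of size. Unc5b, a netrin receptor, rose (slope 0.27, adjusted p = 0.0299) at levels from 250.4 to 379 CPM. Among transcription factors 2 of 15 tested fell, Sox7 (slope -0.85, adjusted p = 0.0408), a relative of Sox17, and Lmo2 (slope -0.87, adjusted p = 0.0297), a partner of blood and endothelial factors. Sox18, Tal1, Hhex and Hey2 were under the filter, and Etv2, the factor that starts the endothelial lineage, had 0 counts in every library.

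Of 14 junction and surface genes tested 3 fell and 2 rose. Cd93, a lectin-like receptor of endothelium and myeloid cells, had 12.8, 4.05 and 2.03 CPM in WT, and in KO 12.5, 6.65 and 2.32 CPM (slope -1.28, adjusted p = 0.00182). Podxl, which encodes podocalyxin, fell with a slope of -1.41 (adjusted p = 0.00816) and Plvap, the gene of the diaphragm protein of fenestrated vessels, with -1.51 (adjusted p = 0.0234). Procr, the endothelial protein C receptor gene, rose (slope 0.50, adjusted p = 0.0458), as did Ly6c1 (slope 0.78, adjusted p = 0.00303). Among the other endothelial genes 4 of 11 fell: Nos3, the endothelial nitric oxide synthase gene (slope -1.72, adjusted p = 0.00875), Rasip1 (slope -1.18, adjusted p = 0.0348), Vwf, the von Willebrand factor gene (slope -0.91, adjusted p = 0.0309), and Tspan18 (slope -0.43, adjusted p = 0.0395). In the WT library of passage 4, Plvap and Nos3 were each at 0.0414 CPM, under its floor of 0.124 CPM, so their slopes are uncertain in size. Cldn5, Icam2, Gpihbp1, Gja4 and Pcdh12 of the surface list were under the filter.

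Between genotypes 1 of these 68 genes was called in edgeR, Foxc2, a factor of lymphatic and mesenchymal development, which was higher in KO (log2 1.23, adjusted p = 0.0314), as were 0.934% of all genes tested. Its values were 3.0, 3.03 and 3.93 CPM in WT, and in KO 6.30, 8.02 and 8.96 CPM. At an unadjusted p under 0.05, 5 receptors and 1 ligand were lower in KO, and 5 surface genes and 1 transcription factor were higher. Of all genes, 11.3% were lower and 10% higher at that level. DESeq2 called 4 receptors lower and 2 surface genes and 1 transcription factor higher, where it called 5.99% of genes lower and 4.86% higher. With passage as a block, which pairs the libraries of the same passage, the calls were 4 receptors and 1 ligand lower, and 4 surface genes, 2 transcription factors and 1 other endothelial gene higher, where 6.37% of all genes were called lower and 4.69% higher.

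**Figure D4:**
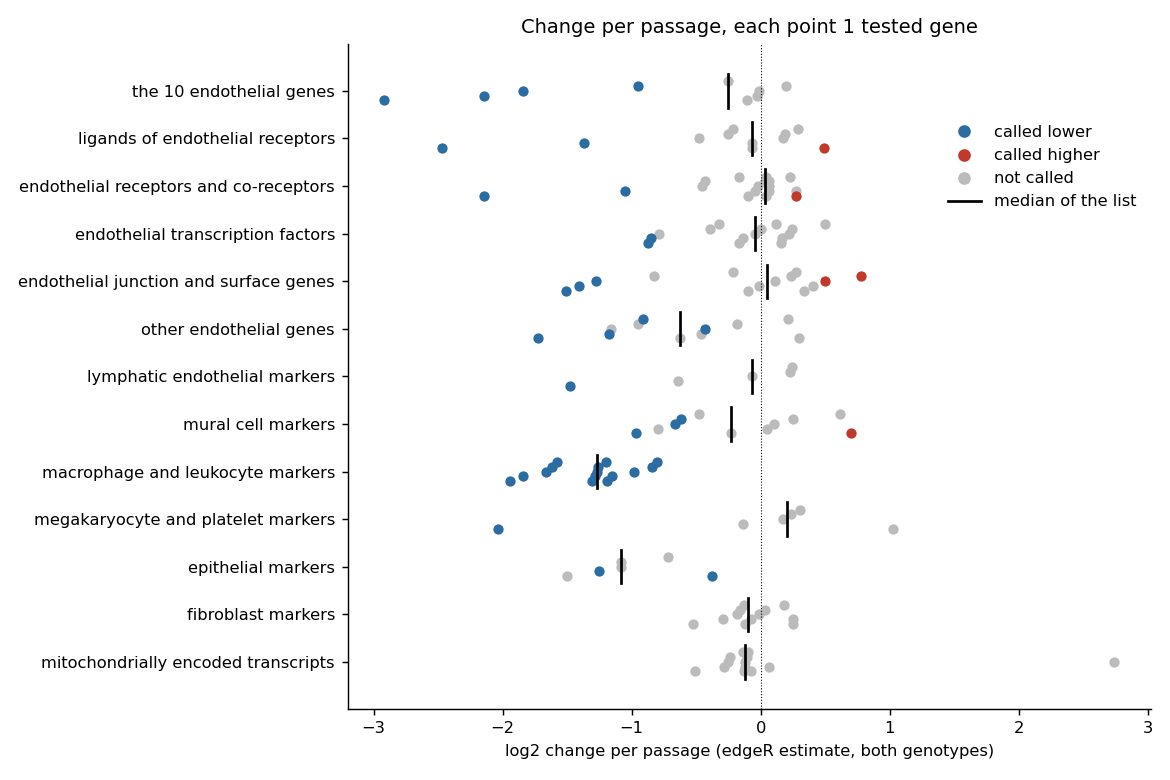
Change per passage on the log2 scale (horizontal axis) of each tested gene in the 10-gene list, the 5 further endothelial lists and the lists of other cell types; blue points were called lower, red points higher, grey points neither, and black bars are list medians. All 15 macrophage markers lie below 0 and were called, the 10-gene list splits into a falling group and a group near 0, and fibroblast markers have a median of -0.098.

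Markers of other cells moved with passage too. All 15 macrophage and leukocyte markers were called lower with passage, with a median slope of -1.27, and their summed level went from 195 to 87.6 and 32.3 CPM in WT and from 126 to 46.4 and 26.3 CPM in KO. Their sum was lower in KO than in WT at each passage. Pf4 was called lower in the list of 6 tested megakaryocyte and platelet markers (slope -2.03), but the median slope of that list was 0.20. DESeq2 called 1 of these markers lower and 1 higher. Pecam1 and Vwf are also expressed in that cell type, and expression of the 10 genes in leukocytes was not examined. At passage 4 Pf4 was at 0.0827 CPM in WT and 0.0318 CPM in KO, under the floors of 3 counts. Stab1 was called lower in the list of 5 tested lymphatic markers (slope -1.48), whose median slope was -0.064. Stab1 had 16.8, 4.48 and 2.15 CPM in WT, and in KO 11.1, 3.18 and 1.56 CPM. It was lower in KO at each passage, as was the macrophage and leukocyte sum. Among 6 tested epithelial markers, with a median slope of -1.08, Krt8 (slope -1.25) and Krt19 (slope -0.38) were called lower in edgeR. At an unadjusted p under 0.05, 6 were lower, beside 11% of all genes tested. DESeq2 called 5 lower, beside 5.65% of all genes. Their summed level was 18.6, 8.61 and 5.46 CPM across the WT passages and 25.5, 21.8 and 13.9 CPM across the KO passages. The sum was thus higher in KO at each passage, as were Cdh5 and Pecam1. Krt19 was higher in KO at each passage, while Krt8 was lower in KO at passage 2 and higher at passages 3 and 4. Among 11 mural markers Cspg4, Des and Anpep were called lower and Myh11 higher. The part of these cells in the falling endothelial genes was not tested. Erythroid markers summed to 0.258 to 0.701 CPM, with Hbb-bt, Hbb-bs and Hba-a1 at 0 in every library. Fibroblast markers had 0 of 12 called with passage in edgeR (2 lower and 3 higher at an unadjusted p under 0.05, and 1 and 2 in DESeq2). Of all genes tested, 11% were lower and 10.2% higher with passage at that unadjusted level. Mitochondrially encoded transcripts had 0 of 13 called (1 higher at an unadjusted p under 0.05, and 1 higher in DESeq2). Within the genotypes the sums ran in opposite directions. In WT 1 was called lower in edgeR, 8 were lower at an unadjusted p under 0.05 and DESeq2 called 6. The shares of all genes were 0.566%, 8.87% and 2.19%. The sum in WT was 8185, 6158 and 5379 CPM by passage. In KO 0 were called in edgeR, 1 was higher at an unadjusted p under 0.05 (7.71% of all genes) and DESeq2 called 0, with sums of 7334, 7483 and 8294 CPM. The difference of slopes was called for 0 of the 13 in edgeR. At an unadjusted p under 0.05 it was above 0 for 7, beside 2.78% of all genes. DESeq2 called 1, beside 0.592% of all genes in either direction. The part of mitochondrially encoded transcripts in the falling endothelial genes was not tested.

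The genes whose levels followed the list most closely were ranked among 12418 protein-coding genes with a mean of at least 1 CPM, by Pearson's r over the 6 libraries with the mean of the 9 scaled genes. Hspa5, an endoplasmic reticulum chaperone gene, came first (r = 0.992), followed by Mtr (r = 0.990) and Smc1a (r = 0.989), and the lowest of the 10 was Zdhhc6 (r = 0.973). Their own changes were small, with slopes from -0.25 for Hspa5 to -0.083 for Zdhhc6, and 0 of the 10 passed the test for passage in edgeR. Ranked by likeness to Cdh5 alone, a ranking added after the values were seen, Donson and Chek1 (r = 0.998 each) and Mre11a (r = 0.993), genes of DNA replication and repair, came first. Donson had 11.3, 7.73 and 7.16 CPM in WT, and in KO 11.5, 10.6 and 7.88 CPM, so it shared the order of the libraries but not the size of the change. These correlations describe 6 libraries that share their passages and depths, and they were not tested.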

How the data were processed

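Total RNA of 6 MEF libraries was sequenced. Per the submitters' processing notes, the authors trimmed reads with Trimmomatic 0.39 and quantified them with RSEM on GRCm38. For RSEM's version, the aligner settings, the annotation and strand handling nothing is given in the sources used. The deposited tables of the authors hold expected counts (ambiguous reads shared out by a model, 12.0% to 15.8% of values not whole), TPM values, FPKM values, which were not used, and effective lengths. Genes took symbols from GENCODE M21 (55227 of 55487 matched). No pair of libraries held identical values (0 pairs).

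Expected counts were rounded, TMM-scaled and tested with the 2-sided quasi-likelihood test of edgeR 4.0.16 (R 4.3.3, robust) after a filter by genotype (minimum count 10), which left 16603 genes. A gene near 0 at some passages could pass the filter through the others, as Tie1 did. Adjusted p under 0.05 (Benjamini-Hochberg, over all genes tested) was called. Fits were a linear passage slope with a genotype term (3 residual degrees of freedom), genotype alone (4), and slopes per genotype with their difference (2). Ratios of single libraries have exact (Clopper-Pearson) 95% conditional counting intervals. Alternatives were DESeq2 1.42.0, RLE size factors, no filter and a stricter one (at least 10 counts in 3 libraries and a mean of 1 CPM), limma 3.58.1 on log2(TPM + 1) and log2(TPM + 0.1), effective lengths as offset, other designs, and leaving out each library. Scripts were tested on simulated data.

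The replicate number is the passage. Deviations from the genotype means of same-passage libraries correlated (r = 0.488, 0.137 and 0.416 at passages 2, 3 and 4), so passage pairs the libraries. The genes and lists were chosen with earlier results of these data known. Named genes are the 10, called genes of the other lists and the 10 most correlated genes. Genes named as under the filter or at 0, and Donson, Chek1 and Mre11a, were added after their values were seen.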

Additional observations from a re-analysis of the deposited data

How the results depend on the processing

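The 4 genes called lower with passage became 2 with the stricter filter, which Tie1 and Esam do not pass, 0 without both libraries of passage 2, 0 without the genotype covariate, and 0 to 3 when 1 library was left out; the other settings gave 3 or 4. For genotype, 1 gene was called, against 2 with DESeq2, 0 with effective lengths, 0 when the genotype tag replaced the title (Flt1 -0.27, adjusted p = 0.928) and 0 to 1 without 1 library. With passage as a replicate block 1 gene was called (Flt1, log2 -1.05, adjusted p = 0.0237), and the block changed no other call among the 10 genes. WT slopes, with 0 called, gave 3 in DESeq2, 3 without a filter, 1 with effective lengths and 0 to 3 without 1 library. KO slopes, with 0 called, gave 2 in DESeq2, 4 without a filter and 0 to 3 without 1 library. The difference of slopes gave 0 in every setting. Except where a setting tests fewer genes or libraries, the cause was not tested.

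Signs changed in values that were not called, or not called in that fit. Without both libraries of passage 2 the passage slope was 0.15 for Kdr, 0.024 for Flt1, 0.60 for Tek and 0.15 for Eng. Without 1 library it ran from -0.10 to 0.014 for Kdr, from -0.24 to 0.10 for Flt1 and from -0.094 to 0.040 for Eng. The genotype difference ran from -0.068 to 2.45 for Pecam1, from -0.42 to 0.17 for Tek and from -0.46 to 5.10 for Tie1, and with the genotype tag it was 0.42 for Tek and -0.051 for Emcn. The difference of slopes ran from -0.14 to 2.05 for Cdh5, from -0.79 to 1.14 for Pecam1, from -0.78 to 0.093 for Flt1 and from -2.27 to 3.68 for Tie1, and on log2(TPM + 1) it was -0.029 for Pecam1 and -0.032 for Tie1. The Flt1 slope ran from -0.12 to 0.31 in WT and from -0.70 to 0.17 in KO.

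Over all genes, the 1038 called with passage became 1709 in DESeq2, 2443 without a filter, 13 without both libraries of passage 2, 157 without the genotype covariate and 248 to 1261 without 1 library. The 412 called for genotype became 1661 in DESeq2, 846 without a filter, 1835 with the passage block, 0 with the genotype tag, 70 without both libraries of passage 2 and 44 to 860 without 1 library. The difference of slopes, with 0, gave 83 in DESeq2, 289 without a filter and 2 on TPM. WT slopes (134) gave 603, 1417 and 344, and 1 to 444 without 1 library (1 without the WT library of passage 2 or 4). KO slopes (158) gave 663, 1454 and 332, and 2 to 513 without 1 library (2 without the KO library of passage 2, 21 without that of passage 4). The difference of slopes gave 0 to 11 without 1 library. Depth limits Tie1, Esam and Sox17 most, since no library holds more than 48 of their counts.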
